A study of Mus musculus with 4 samples.

Results

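The genes examined were 36 factors of blood coagulation and fibrinolysis, taken by gene symbol from 24346 symbols measured in liver. The serpins, which include antithrombin and the plasminogen activator inhibitors, were not among them. Each of the 36 genes was listed and was above 0 in each of 4 liver libraries. The libraries came from male ob/ob mice, a strain without functional leptin that overeats and becomes obese, and every mouse carried that mutation. The mice were 6 weeks old when the diets began and were fed for 4 weeks. The groups were CD (chow diet with 1% cholesterol), CD+7KC (the same diet with 0.01% 7-ketocholesterol), WD (a high fat diet with 1% cholesterol) and WD+7KC (that diet with 0.01% 7-ketocholesterol). 7-Ketocholesterol (7KC) is an oxidized form of cholesterol, and the study asked whether a small amount of it in the diet alters the liver of obese mice. By the study's methods WD also held more sucrose, another source of fat and slightly less casein than CD. A difference between WD and CD is therefore not one of fat content alone. There was no lean group and no diet without added cholesterol in these libraries.

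Blood clotting is a chain of proteases that activate each other and end in thrombin, which turns soluble fibrinogen into fibrin. The liver is the source of most of these proteins in plasma: hepatocytes secrete fibrinogen, prothrombin, most other zymogens and plasminogen. Endothelial cells supply factor VIII, von Willebrand factor and the surface proteins that hold thrombin back, and macrophages and other cells make urokinase and its receptor. By this general knowledge 19 members were taken as usually made by hepatocytes, 14 as usually made by other or several cell types, and 3 as broadly expressed.

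Expression was given by the authors as FPKM (sequenced fragments scaled to transcript length and to library size), a level that allows genes to be compared within a library. Each group had 1 library, so the differences below could not be held against a spread between replicates, and p-values are not given. It is not stated whether a library held RNA of 1 mouse or of several. A log2 fold change is the log2 ratio of FPKM + 0.1, so that differences of weakly expressed genes are understated. The steps between low FPKM values gave an estimated depth of 9400000 to 12090000 fragments per library. From this depth each member received an estimated read number and an exact (Clopper-Pearson) 95% counting interval, which accounts for counting error alone and leaves out how mice differ. The deposited FPKM values summed to 602059 in WD+7KC and to between 696062 and 715605 in the others. For all genes tested, the median log2 fold change of WD+7KC over WD was 0.00 with the deposited values and 0.21 once every library was rescaled to an equal sum (TPM), and both are given where they differ. In bulk liver, fewer cells of a type and less RNA per cell cannot be told apart.

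The labelled tissue was borne out by its markers, with Alb, the albumin gene, between 30014 and 35981 FPKM. Of the fat cell genes, Adipoq was at most 0.0885 FPKM and Plin1 was listed at 0 in every library. The other fat cell genes listed were well above 0, Fabp4 between 66.5 and 143 FPKM and Cidec between 115 and 202 FPKM. Markers of other liver cells differed between the libraries. The summed level of 10 endothelial markers was 90.2 (CD), 117 (CD+7KC), 70.4 (WD) and 173 FPKM (WD+7KC). The summed level of 10 macrophage markers was 153, 242, 256 and 513 FPKM in the same order. These values are set beside those of the members, and their part in the results was not tested.

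The members covered a wide span of levels, as the plot of levels shows. Fgb had the highest mean, between 1429 and 2273 FPKM, and A2m the lowest, at 0.122 (CD), 0.0202 (CD+7KC), 0.0472 (WD) and 0.184 FPKM (WD+7KC). The 23 members that averaged 10 FPKM or more were the 19 hepatocyte-made genes, the 3 broadly expressed genes and the thrombin receptor gene F2r. The other 13 members were all below 6 FPKM in every library. In mice the circulating protease inhibitor of the alpha-2-macroglobulin type is mainly the product of Pzp, which was between 572 and 677 FPKM, while A2m rested on an estimated 1.0 to 9.8 reads.

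**Figure D1:**
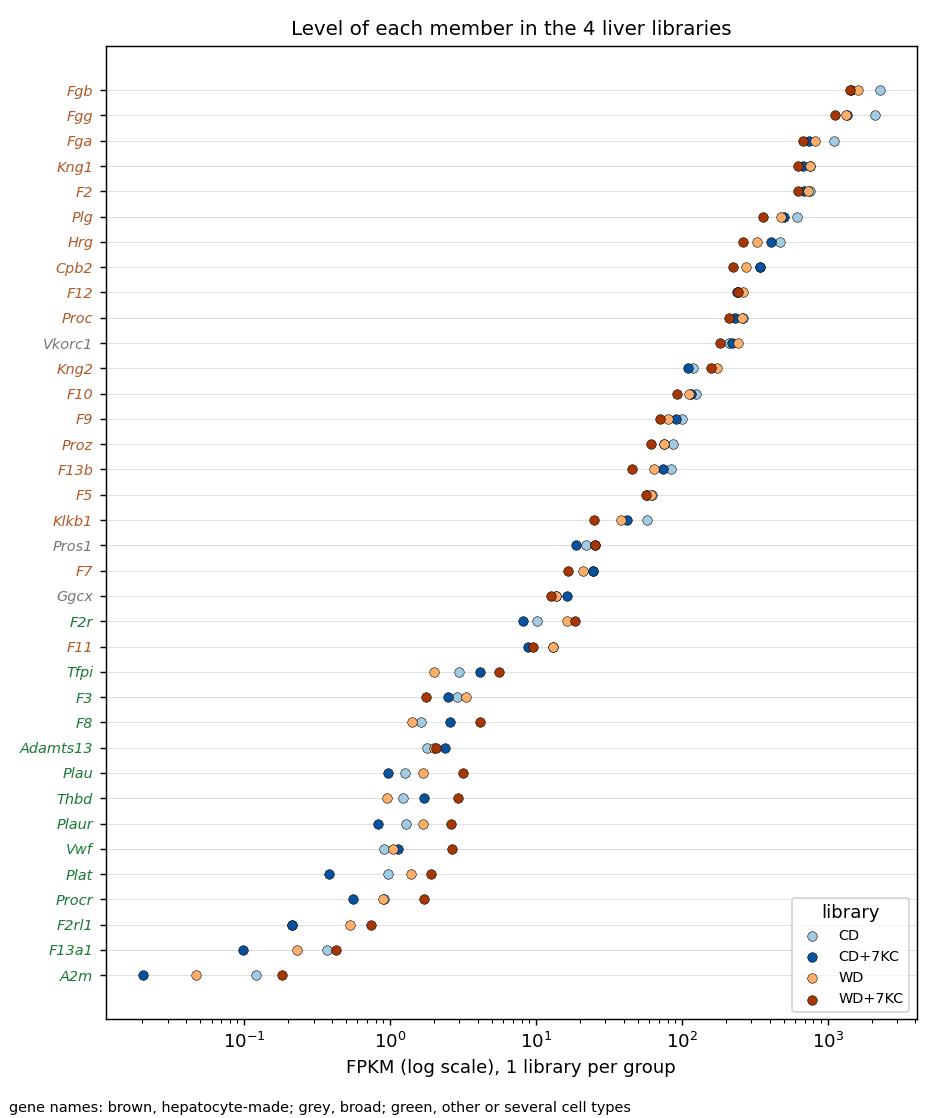
FPKM (log axis) of the 36 genes in the 4 libraries, ordered by mean level, with 1 point per library. Hepatocyte-made genes (brown names) lie above 8 FPKM and most genes of other cell types (green names) below 6 FPKM. WD+7KC is the lowest library for 16 of 19 of the former (9 of 19 after rescaling to equal sums). Among all genes averaging 10 FPKM or more, WD+7KC is the lowest for 45.9% (15.2% after rescaling). WD+7KC is the highest for 12 of 14 genes of other cell types under both scalings. Among all genes averaging under 10 FPKM, WD+7KC is the highest for 33.7% (51.6% after rescaling).

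With the deposited values, 19 of 19 hepatocyte-made members were lower in CD+7KC than in CD, with a median log2 fold change of -0.19, and 19 of 19 were lower in WD+7KC than in WD (median -0.28). Among all 4671 genes that averaged 10 FPKM or more, 53.5% were lower in CD+7KC and 71.7% in WD+7KC, with medians of -0.01 and -0.12. After rescaling to equal sums, 16 of the 19 were lower in CD+7KC (median -0.15) and 13 of the 19 in WD+7KC (median -0.07). Of the genes that averaged 10 FPKM or more, 44.5% and 31.4% were then lower, with medians of 0.02 and 0.10. Hepatocyte markers that are not members were lower as well, 4 of 6 in CD+7KC (median -0.13) and 6 of 6 in WD+7KC (median -0.38, or -0.16 with 4 of 6 lower after rescaling), and their part in the members' values was not tested. CD was the highest library for 16 of the 19 members, or 12 after rescaling, against 27.9% and 16.2% of all genes that averaged 10 FPKM or more. The members of other cell types went the other way under WD. Of these 14 genes, 13 were higher in WD+7KC than in WD (median 0.77), and 13 of 14 were higher after rescaling as well. Among all genes that averaged under 10 FPKM, 59.5% were higher in WD+7KC with the deposited values and 74.9% after rescaling. Under CD, 5 of the 14 were higher in CD+7KC (50.6% of those genes), or 6 after rescaling (58.5%).

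Fibrinogen, the substrate of clotting, is a protein of paired alpha, beta and gamma chains encoded by Fga, Fgb and Fgg. The 3 genes lie side by side within 42.1 kb of chromosome 3 (83007724 to 83049863, GRCm38). Their promoters are shown because the 3 genes were the most abundant members and lie next to each other. The sequences are from RefSeq (GRCm38.p6) and cover the 250 bases before the annotated start. Capitals mark matches on either strand to the HNF1 half-site GTTAAT, the type II interleukin-6 element CTGGGAA or the C/EBP motif TTGCNNAA.
Fga, chr3:83025903-83026152, plus strand: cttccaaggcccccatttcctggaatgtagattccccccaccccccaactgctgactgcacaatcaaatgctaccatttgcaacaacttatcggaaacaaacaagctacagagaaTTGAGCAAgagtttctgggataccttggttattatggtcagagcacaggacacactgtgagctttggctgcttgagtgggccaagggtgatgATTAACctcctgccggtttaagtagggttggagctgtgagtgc
Fgb, chr3:83049864-83050113, minus strand: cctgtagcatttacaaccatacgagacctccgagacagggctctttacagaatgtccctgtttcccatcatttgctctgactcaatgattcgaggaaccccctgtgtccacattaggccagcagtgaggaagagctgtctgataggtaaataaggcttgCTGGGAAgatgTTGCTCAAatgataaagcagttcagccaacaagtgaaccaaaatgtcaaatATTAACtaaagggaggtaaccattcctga
Fgg, chr3:83007474-83007723, plus strand: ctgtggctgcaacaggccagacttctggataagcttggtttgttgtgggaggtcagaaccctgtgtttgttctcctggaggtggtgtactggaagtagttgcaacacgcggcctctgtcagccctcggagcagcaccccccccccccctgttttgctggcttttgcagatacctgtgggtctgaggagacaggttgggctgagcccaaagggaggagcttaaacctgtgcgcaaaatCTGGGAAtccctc

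HNF1 is a transcription factor of hepatocytes, and interleukin-6 signals and C/EBP factors are known to raise fibrinogen transcription in the acute-phase response. The Fgb window held all 3 motifs, with the interleukin-6 element 91 to 85 bases before the start, the C/EBP match 80 to 73 bases before it and the HNF1 half-site 29 to 24 bases before it. The Fga window held a C/EBP match and an HNF1 half-site, and the Fgg window held the interleukin-6 element 13 to 7 bases before the start. In all 32851 promoter windows of the same length, the HNF1 half-site was found in 6.43%, the interleukin-6 element in 9.10% and the C/EBP motif in 9.56%. RefSeq windows were at hand for 27 of the 36 members. Of the 16 hepatocyte-made genes among them, 4 held the HNF1 half-site (F13b, Fga, Fgb and Proz), 3 the interleukin-6 element (F9, Fgb and Fgg) and 7 the C/EBP motif. Of the 8 genes of other cell types none held the HNF1 half-site, 2 held the interleukin-6 element (Adamts13 and Tfpi) and 2 the C/EBP motif (Plaur and Procr), which 1 of the 3 broadly expressed genes (Ggcx) held too. The longer HNF4 motif CAAAGTCCA was in 0.384% of all windows and in none of these 27. A gene was counted if any of its windows held the motif, while the percentages are of single windows. The gene counts and the percentages are therefore not on the same scale. A match is a stretch of letters and not a measured binding site.

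CD had the highest level of all 3 fibrinogen chains. Fgb was at 2273 (CD), 1449 (CD+7KC), 1612 (WD) and 1429 FPKM (WD+7KC). Fgg was at 2104, 1351, 1334 and 1117 FPKM in the same order, and Fga was at 1110, 750, 819 and 682 FPKM. So CD stood apart from the other 3 libraries, which lay closer together for each chain. In CD+7KC compared to CD the log2 fold change was -0.57 for Fga (95% counting interval -0.60 to -0.54), -0.65 for Fgb (-0.66 to -0.63) and -0.64 for Fgg (-0.66 to -0.61). In WD compared to CD it was -0.44, -0.50 and -0.66. With 7KC added to WD the differences were smaller, -0.27 for Fga, -0.17 for Fgb and -0.26 for Fgg, and after rescaling to equal sums they were -0.05, 0.04 and -0.04. A ratio within a library does not depend on its scaling. Per 1000 FPKM of Alb, Fgb stood at 64.8 (CD), 46.4 (CD+7KC), 44.8 (WD) and 47.6 (WD+7KC), so that CD alone was high on this scale too. The ratio of Fgb to Fga lay between 1.93 and 2.10 in the 4 libraries. Fgg was at 1.90 and 1.80 times Fga in CD and CD+7KC and at 1.63 and 1.64 times Fga in WD and WD+7KC.

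**Figure D2:**
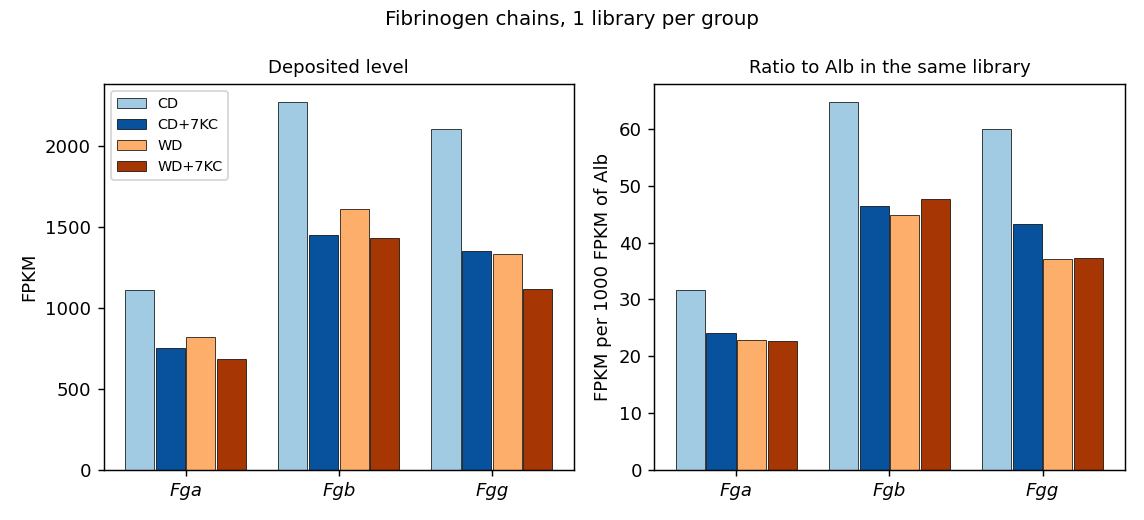
Bars show the deposited FPKM of Fga, Fgb and Fgg (left) and the same per 1000 FPKM of Alb in the same library (right), with 1 library per group and no error bars. CD is the highest library for each chain in both panels, for example 64.8 against 44.8 to 47.6 per 1000 FPKM of Alb for Fgb.

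Fibrin is cross-linked by factor XIII, whose catalytic A subunit is made by macrophages and platelet precursors and whose carrier B subunit is made by hepatocytes. F13b, the B subunit gene, was at 85.0 (CD), 74.3 (CD+7KC), 64.5 (WD) and 45.5 FPKM (WD+7KC), so that WD+7KC was the lowest library. Its log2 fold change was -0.50 in WD+7KC compared to WD (-0.62 to -0.39), or -0.29 after rescaling. F13a1, the A subunit gene, was at 0.373, 0.0987, 0.231 and 0.427 FPKM in CD, CD+7KC, WD and WD+7KC, an estimated 14.9, 4.0, 7.9 and 18.9 reads. It was lower in CD+7KC than in CD (-1.25, interval -3.96 to -0.26), and a difference between WD and WD+7KC was not detectable at this depth (0.67, interval -0.37 to 2.29). Platelet markers were low as well, with a sum over 6 genes of 4.97, 3.32, 6.76 and 3.81 FPKM and 1 gene listed at 0 in CD and in WD+7KC.

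The vitamin K-dependent zymogens are prothrombin (F2) and factors VII, IX and X (F7, F9 and F10), which need a carboxylated domain to bind membranes. F2 was at 759 (CD), 686 (CD+7KC), 729 (WD) and 627 FPKM (WD+7KC), a range of 1.21-fold. All 4 genes were lower in WD+7KC than in WD, by log2 fold changes between -0.34 (F7) and -0.18 (F9). After rescaling to equal sums this became 2 higher and 2 lower, with a median of -0.03, while all 4 were lower in WD than in CD under both scalings, with intervals that excluded 0 for 4 of them as deposited and for F9 and F10 after rescaling. F7 was at 24.9, 24.7, 21.0 and 16.7 FPKM, so that the WD libraries held the lower values. F7, F10 and the gene of protein Z (Proz) are neighbours within 50.5 kb of chromosome 8 (13025506 to 13076026), and their log2 fold changes between WD+7KC and WD were -0.34, -0.27 and -0.28.

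The enzymes of the vitamin K cycle did not share this order. Ggcx, the carboxylase that modifies the zymogens, was at 13.8 (CD), 16.5 (CD+7KC), 13.9 (WD) and 12.7 FPKM (WD+7KC). It was higher in CD+7KC than in CD (0.25, interval 0.07 to 0.45), and its interval included 0 in WD+7KC compared to WD (-0.12, -0.33 to 0.08). Vkorc1, the reductase that recycles vitamin K and the target of warfarin, was at 210, 221, 243 and 183 FPKM, and its log2 fold change in WD+7KC compared to WD was -0.41 (-0.52 to -0.29), or -0.19 after rescaling. Of the 75-base windows of Vkorc1 transcripts, 42.9% are also found in Gm21974, a GENCODE gene that the tables do not list, so its FPKM depends on how such reads were assigned.

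Among the cofactors, factor V and factor VIII are close relatives with different sources, hepatocytes for the first and endothelium for the second. F5 was nearly level, at 62.9 (CD), 57.5 (CD+7KC), 62.0 (WD) and 57.0 FPKM (WD+7KC). F8 was at 1.62, 2.57, 1.43 and 4.16 FPKM, so that the library with 7KC was the higher within each diet. The log2 fold change of F8 was 0.63 in CD+7KC compared to CD (0.33 to 0.99) and 1.48 in WD+7KC compared to WD (1.22 to 1.89). The ratio of F8 to F5 within a library was 0.0258, 0.0448, 0.0230 and 0.0731. Vwf, which encodes the carrier of factor VIII and a platelet tether, was at 0.914, 1.13, 1.05 and 2.68 FPKM. Only WD+7KC stood clear of the other libraries for Vwf, with a log2 fold change of 1.27 compared to WD (1.0 to 1.72), while CD+7KC compared to CD gave 0.28 (-0.11 to 0.74). Adamts13, the stellate cell protease that cuts von Willebrand factor, was between 1.79 and 2.40 FPKM, and no interval of its 4 comparisons excluded 0. F3, which encodes tissue factor, the starter of the cascade, was at 2.88, 2.49, 3.35 and 1.77 FPKM. It was the exception among the 14 genes of other cell types, lower in WD+7KC than in WD (-0.88, interval -1.57 to -0.28, or -0.68 after rescaling) on an estimated 52.6 and 35.7 reads.

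Of the surface anticoagulants of endothelium, Thbd and Tfpi followed the order of F8 and Procr did not. Thbd, which encodes thrombomodulin, the thrombin receptor that starts protein C activation, was at 1.24 (CD), 1.72 (CD+7KC), 0.960 (WD) and 2.92 FPKM (WD+7KC). Tfpi, the inhibitor of tissue factor and factor Xa, was at 2.96, 4.12, 1.99 and 5.61 FPKM. For both genes WD was the lowest library and WD+7KC the highest. Their log2 fold changes in WD+7KC compared to WD were 1.51 (1.02 to 2.2) and 1.45 (0.85 to 2.23), and in CD+7KC compared to CD they were 0.45 (-0.08 to 1.04) and 0.47 (-0.11 to 1.09). Procr, the endothelial protein C receptor gene, was at 0.909, 0.557, 0.894 and 1.71 FPKM. Its 8.5 to 28.8 estimated reads left a difference between WD and WD+7KC not detectable at this depth with the deposited values (0.86, interval -0.10 to 2.02), while the rescaled interval was 0.11 to 2.23.

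Most endothelial markers were also highest in WD+7KC. Between WD+7KC and WD, 9 of the 10 markers were higher in WD+7KC (median log2 fold change 1.48, Erg being the exception at -0.01), and in WD compared to CD 8 of 10 were lower, with a median of -0.36. None of them was listed at 0. Kdr was at 3.73 (CD), 5.29 (CD+7KC), 2.09 (WD) and 8.36 FPKM (WD+7KC), and Cdh5 at 5.59, 6.60, 3.99 and 13.6 FPKM. Relative to Cdh5 in the same library, Thbd lay between 0.215 and 0.261, F8 between 0.291 and 0.390, Tfpi between 0.413 and 0.625 and Vwf between 0.164 and 0.263. Relative to Pecam1, another endothelial gene, the highest and lowest ratios differed by 1.38-fold (F8) to 1.56-fold (Tfpi) for these 4 genes and by 2.13-fold for Procr. The reference gene mattered for the direction. All 4 genes were lower relative to Cdh5 in WD+7KC than in WD, for example F8 at 0.307 against 0.358. Relative to Pecam1 all 4 were higher in WD+7KC, with F8 at 0.329 against 0.238. How far the marker level accounts for the differences was not tested.

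**Figure D3:**
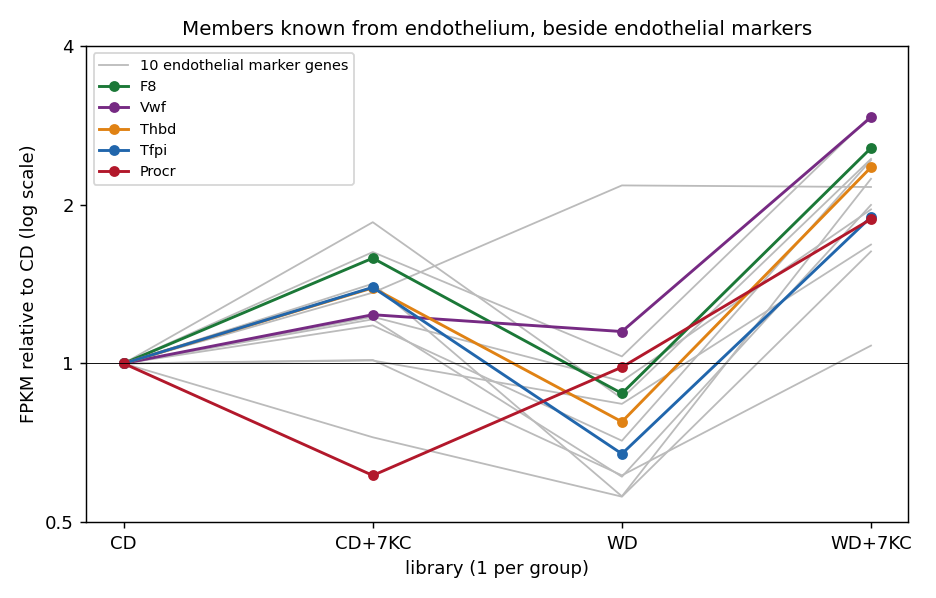
FPKM relative to CD (log axis) of F8, Vwf, Thbd, Tfpi and Procr (coloured, points joined only to guide the eye) and of 10 endothelial marker genes (grey) in the 4 libraries. All 5 members are highest in WD+7KC, as are 9 of the 10 markers.

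The anticoagulants made by hepatocytes behaved like the zymogens. Proc, the gene of protein C, was at 264 (CD), 232 (CD+7KC), 258 (WD) and 211 FPKM (WD+7KC), and Proz was between 61.9 and 87.6 FPKM. Relative to WD, the log2 fold changes in WD+7KC were -0.29 (Proc) and -0.28 (Proz), and -0.07 for each after rescaling. In WD compared to CD, Proz was lower (-0.22, interval -0.38 to -0.06), as the zymogens were. Proc did not differ detectably there (-0.03, interval -0.10 to 0.03). Pros1, which encodes the protein S cofactor and is made by several cell types, was lower in CD+7KC than in CD (-0.22, interval -0.37 to -0.06). A difference between WD (25.4 FPKM) and WD+7KC (25.3 FPKM) was not detectable with the deposited values (0.00, interval -0.14 to 0.14), and after rescaling it was 0.21 (0.07 to 0.35).

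The contact system starts clotting on charged surfaces and releases bradykinin from kininogen. Klkb1, the plasma prekallikrein gene, showed the largest range among the hepatocyte-made members, at 57.9 (CD), 42.1 (CD+7KC), 38.3 (WD) and 25.2 FPKM (WD+7KC). Its log2 fold change was -0.46 in CD+7KC compared to CD (-0.54 to -0.38), -0.60 in WD+7KC compared to WD (-0.70 to -0.50) and -0.60 in WD compared to CD, and under rescaling these were -0.42, -0.38 and -0.56. Of its 75-base windows, 42.4% are shared with Gm45753, another GENCODE gene that the tables do not list. F11, the gene of factor XI, lies next to Klkb1 on chromosome 8 (45240659 to 45294835 for both). It was at 13.2, 8.82, 13.1 and 9.53 FPKM, and both libraries with 7KC were the lower ones, by -0.57 (-0.85 to -0.32) under CD and -0.46 (-0.73 to -0.20) under WD. After rescaling the second interval was -0.51 to 0.01. F11 did not differ detectably between WD and CD (0.00, interval -0.25 to 0.24), unlike its neighbour.

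F12, the gene of factor XII, was between 239 and 263 FPKM, the narrowest range of the contact system. The kininogen genes Kng1 and Kng2 are neighbours of Hrg on chromosome 16 (22951072 to 23082078 for the 3 genes) and differed from each other in the diet comparison. Kng1 was at 755 (CD), 675 (CD+7KC), 763 (WD) and 626 FPKM (WD+7KC), and Kng2 at 119, 111, 174 and 158 FPKM. The log2 fold change in WD compared to CD was 0.02 for Kng1 and 0.55 for Kng2, the latter the only positive change above 0.2 among the 19 hepatocyte-made members. The ratio of Kng2 to Kng1 was 0.157 and 0.165 in the CD libraries and 0.228 and 0.253 in the WD libraries. The paralogs share 10.8% of the 75-base windows of Kng2, so a part of their reads cannot be assigned to either gene with certainty.

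In fibrinolysis, plasminogen is activated by tPA or urokinase to dissolve fibrin. Plg, the plasminogen gene, was at 613 (CD), 505 (CD+7KC), 480 (WD) and 361 FPKM (WD+7KC). It was lower with 7KC under both diets and under both scalings, by -0.28 (CD) and -0.41 (WD) with the deposited values and by -0.24 and -0.19 after rescaling. Cpb2, which encodes the fibrinolysis inhibitor TAFI, was at 345, 342, 277 and 225 FPKM, and Hrg, a plasma glycoprotein that binds plasminogen and heparin, at 470, 408, 330 and 263 FPKM. For these 3 genes WD was lower than CD under both scalings, with log2 fold changes from -0.51 to -0.32 as deposited.

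The activators and the urokinase receptor showed another order. Plau, the urokinase gene, was at 1.27 (CD), 0.973 (CD+7KC), 1.68 (WD) and 3.18 FPKM (WD+7KC). Plaur, its receptor gene, was at 1.30, 0.836, 1.68 and 2.62 FPKM, and Plat, the tPA gene, at 0.965, 0.385, 1.39 and 1.92 FPKM. For all 3 genes CD+7KC was the lowest library and WD+7KC the highest. In CD+7KC compared to CD the interval included 0 for Plau (-0.36, -1.24 to 0.44) and Plaur (-0.58, -1.84 to 0.45). It excluded 0 for Plat (-1.14, -2.55 to -0.22). The log2 fold change in WD+7KC compared to CD+7KC was 1.61 for Plau (1.01 to 2.43), 1.54 for Plaur (0.68 to 2.70) and 2.06 for Plat (1.31 to 3.43), on 9.8 to 82.5 estimated reads. Relative to WD, the interval of WD+7KC excluded 0 for Plau (0.89, 0.31 to 1.53) but not for Plaur (0.61, -0.19 to 1.44) or Plat (0.44, -0.18 to 1.18), although after rescaling it excluded 0 for these genes too (0.03 to 1.65 and 0.03 to 1.40). Macrophage markers were higher in WD+7KC than in WD for 10 of 10 genes (median log2 fold change 1.01), and higher in CD+7KC than in CD in 9 of 10, with a median of 0.70. None of them was listed at 0. Adgre1, which encodes F4/80, was at 2.92, 5.41, 5.03 and 14.9 FPKM in CD, CD+7KC, WD and WD+7KC. Of 8 stellate cell markers, 6 were lower in CD+7KC than in CD (median -0.36) and 2 (Lrat and Colec11) were higher. Between WD+7KC and WD, 5 of the 8 were lower (median -0.10), while after rescaling 6 of the 8 were higher (median 0.12). Relative to CD+7KC, 7 of the 8 were higher in WD+7KC (median 0.54), and all 8 were after rescaling (median 0.74). None of the 8 was listed at 0, and their summed level, most of it from Dcn, was 196, 168, 208 and 197 FPKM. The part of any of these cell types in the values of Plau, Plaur and Plat was not tested.

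Thrombin signals to cells through protease-activated receptors. F2r, the gene of the receptor PAR1, was at 10.2 (CD), 8.16 (CD+7KC), 16.4 (WD) and 18.6 FPKM (WD+7KC), so that both WD libraries lay above both CD libraries. Its log2 fold change was 0.68 in WD compared to CD (0.49 to 0.89) and 1.18 in WD+7KC compared to CD+7KC (0.99 to 1.40). F2rl1, the gene of PAR2, which lies near F2r on chromosome 13, was at 0.213, 0.213, 0.537 and 0.739 FPKM, an estimated 5.9 to 22.7 reads. Both WD libraries were the higher ones here too, and the interval excluded 0 in WD+7KC compared to CD+7KC (1.43, 0.46 to 3.39) but not in WD compared to CD (1.02, -0.16 to 3.02).

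Read by comparison, the members past a set fold can be held against all genes tested, with the deposited values only. The shares of all genes past a set fold are not given after rescaling, so the rescaled member counts below have no background. Rescaling moved the middle gene of all those tested from 0.00 to 0.21 in WD+7KC compared to WD. In WD+7KC compared to CD+7KC it moved from 0.00 to 0.20. In CD+7KC compared to CD, 2 of the 36 members differed by more than 2-fold (all genes 6.75%). Past 1.5-fold, 1 was higher (F8, all genes 10.4%) and 6 were lower (Fgb, Fgg, F13a1, Procr, Plat and A2m, all genes 7.11%). In WD+7KC compared to WD, 4 members were past 2-fold (F8, Vwf, Thbd and Tfpi, all genes 9.00%), and each was higher. Past 1.5-fold, 9 were higher (all genes 14.2%) and 2 were lower (F3 and Klkb1, all genes 6.86%), which became 11 and 1 after rescaling. In WD compared to CD, 1 member was past 2-fold (F2rl1, all genes 9.69%), while past 1.5-fold 2 were higher (F2r and F2rl1, all genes 13.5%) and 3 lower (Fgg, Klkb1 and A2m, all genes 10.8%), or 2 and 1 after rescaling. In WD+7KC compared to CD+7KC, 9 members were past 2-fold (all genes 12.6%), and each was higher. Past 1.5-fold, 11 were higher (all genes 17.5%) and 4 lower (F13b, Klkb1, Cpb2 and Hrg, all genes 11.4%), and after rescaling these counts were 14 and 0. With the deposited values the 11 higher genes were all among the 14 of other cell types, and the 4 lower genes were all hepatocyte-made. After rescaling this split did not hold, as the 14 higher genes included Kng2 (hepatocyte-made) and Pros1 (broadly expressed) and none was lower. Source and expression level nearly coincide among the members, so a split by source cannot be told apart from a split by level. The comparisons of diet and of 7KC share libraries, so their values are not independent of each other.

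**Figure D4:**
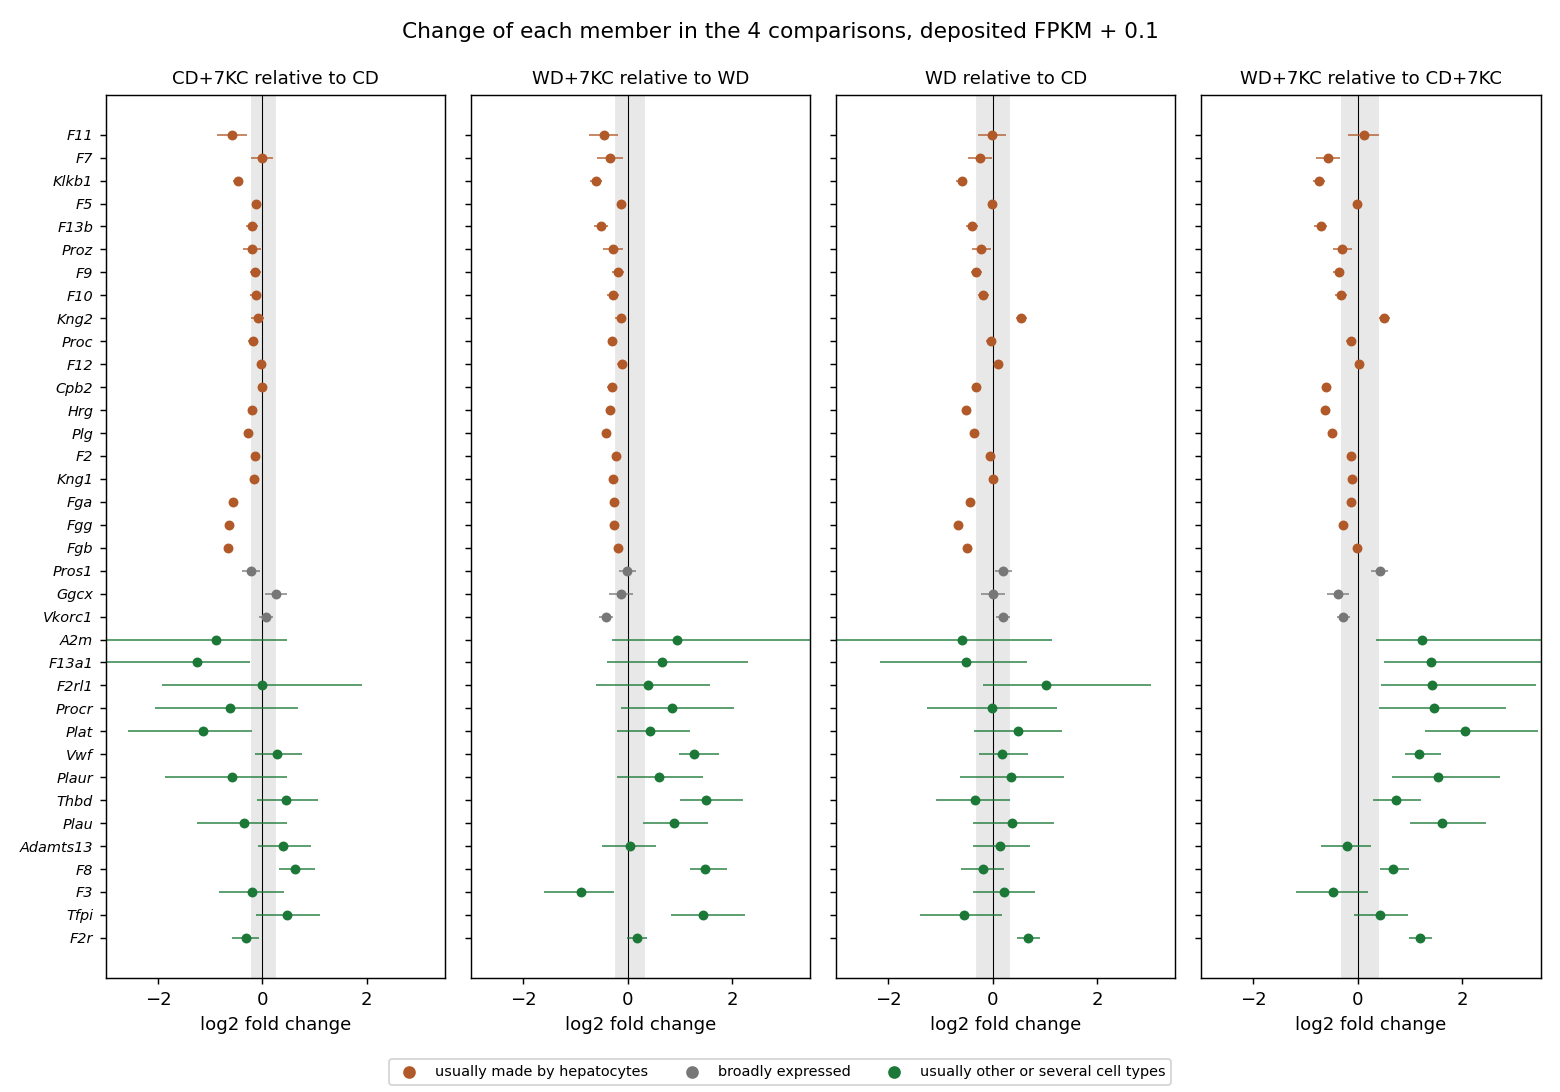
Log2 fold change of FPKM + 0.1 (points) of each member in the 4 comparisons, with exact 95% counting intervals of the FPKM ratio (lines, clipped at the axis limits for A2m and F13a1) and the range between the quartiles of all genes tested (grey band). Hepatocyte-made genes (brown) lie at or left of 0 in both 7KC comparisons, and 13 of 14 genes of other cell types (green) lie right of 0 in WD+7KC relative to WD. After rescaling to equal sums, 16 (CD) and 13 (WD) of the 19 hepatocyte-made genes are lower with 7KC. Among all genes averaging 10 FPKM or more, 53.5% (CD) and 71.7% (WD) are lower, or 44.5% and 31.4% after rescaling. Among all genes averaging under 10 FPKM, 59.5% are higher in WD+7KC than in WD, or 74.9% after rescaling.

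**Figure D5:**
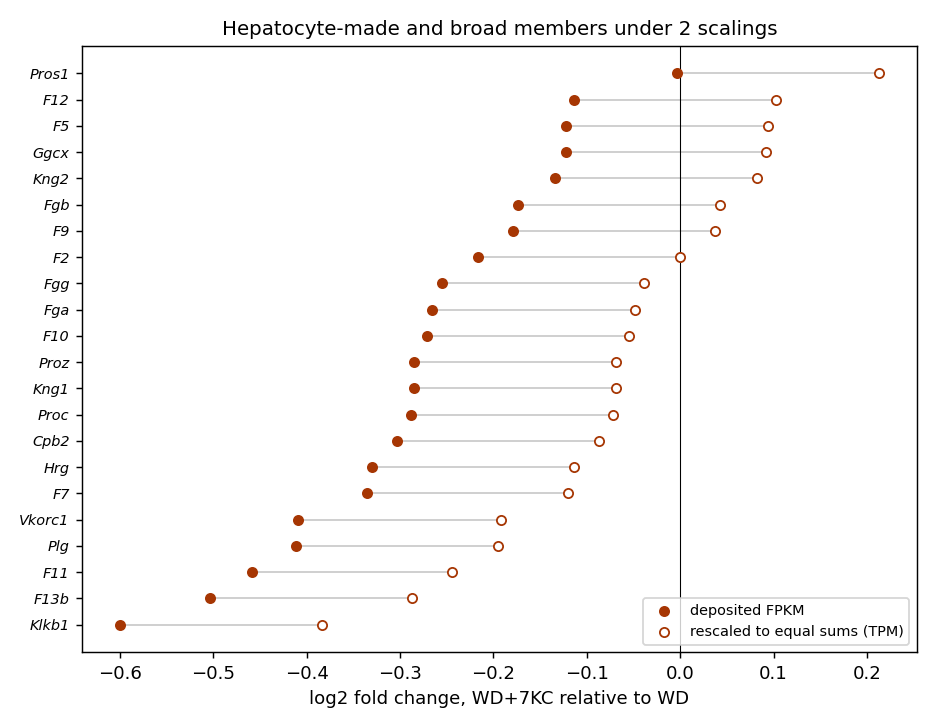
Log2 ratio of WD+7KC over WD for the 19 hepatocyte-made and 3 broadly expressed members with the deposited FPKM (filled) and after rescaling to equal sums (open). All 22 filled points lie below 0, and rescaling moves 8 of the genes to above 0.

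Another 25 genes of the pathway, listed with earlier results of these data known, gave a wider view. They include cargo receptors, plasminogen receptors, further receptors of thrombin and clearance receptors, and 24 of them could be compared, the exception being the platelet receptor gene F2rl3, which was listed at 0 in every library. Between WD+7KC and WD their median log2 fold change was 0.07 (0.27 after rescaling), against 0.00 (0.21 after rescaling) for all genes tested. Of the 24 genes, 3 were past 1.5-fold, each higher (all genes 14.2% higher and 6.86% lower). These were Mmrn2, an endothelial matrix gene, at 1.33 FPKM in WD and 4.62 in WD+7KC, Stab2, a clearance receptor of sinusoidal endothelium, at 3.38 and 7.73 FPKM, and Plgrkt, a plasminogen receptor gene, at 4.65 and 7.87 FPKM. In CD+7KC compared to CD, 1 gene was lower past 1.5-fold (all genes 7.11%) and 1 was higher (all genes 10.4%). The lower was Thbs1, the thrombospondin gene (2.45 FPKM in CD and 1.15 in CD+7KC). Mmrn1 was counted as higher although it was listed at 0 in CD and at 0.163 FPKM in CD+7KC. In WD compared to CD, Gas6 was higher past 1.5-fold (25.3 FPKM in CD and 44.4 in WD, all genes 13.5%). F2rl2 (0.161 and 0.0467 FPKM), Mmrn2 and Thbs1 were lower past 1.5-fold (all genes 10.8%). Gas6 encodes a vitamin K-dependent ligand that is not a clotting factor. Lman1 and Mcfd2, the receptor pair that carries factors V and VIII out of the endoplasmic reticulum, were between 48.1 and 61.7 FPKM and between 120 and 131 FPKM. In WD+7KC compared to CD+7KC, 6 of the 24 genes were higher past 1.5-fold (Anxa2, Fgl2, Gas6, Mmrn2, Plgrkt and Stab2) and 2 lower (Tfpi2, and Mmrn1 at 0.163 and 0.0370 FPKM). Of all genes, 17.5% were higher and 11.4% lower past 1.5-fold in that comparison.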

How the data were processed

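RNA sequencing of liver covered 4 groups of ob/ob mice with 1 library each. The authors prepared stranded mRNA libraries, sequenced 75-base single-end reads, mapped them to mm10 with TopHat2 2.0.13, Bowtie2 2.2.3 and SAMtools 0.1.19, and deposited FPKM values from Cufflinks 2.2.1, with 1 value per gene symbol. The gene annotation and the Cufflinks options are not given in the sources used here. From these values log2 ratios of FPKM + 0.1 were computed for genes above 0 in at least 1 of the compared libraries. Depth was estimated from the FPKM steps of 14153 genes with a single RefSeq mRNA over 600 bases, with the length of its GENCODE vM21 transcript minus 200 bases. The share of low values within 0.1 of a whole read was 73.0% to 74.6%. Reads of genes with several mRNAs were estimated from the shortest, which gives the widest interval. The code was tested on simulated data. With 1 library per group no test was possible. The backgrounds of genes averaging above or below 10 FPKM, the depth estimate, the search for shared windows and the promoter motifs were added after the data were seen. The members, their sources and the lists were chosen with earlier results of these data known. Values in each library are given for members past 1.5-fold in any comparison, for fibrinogen and for the first member of each role, and the members known from endothelium were set apart after their values were seen. Gene positions and promoters came from RefSeq (GRCm38.p6). Python 3.11.15, numpy 2.4.6, pandas 2.3.3, scipy 1.17.1 and matplotlib 3.10.9 were used.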

Additional observations from a re-analysis of the deposited data

Results flagged for a closer look

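F2r, the PAR1 gene, differed in opposite directions between the diets with and without 7KC, with counting intervals that excluded 0 under both scalings. It was lower in CD+7KC than in CD (log2 fold change -0.32, interval -0.55 to -0.09) and higher in WD+7KC than in WD (0.18, 0.01 to 0.35), a difference of 0.50 between the diets. The estimated reads were 350 (CD), 281 (CD+7KC), 485 (WD) and 707 (WD+7KC). After rescaling to equal sums the values were -0.28 and 0.40. Opposite directions under CD and WD were common, seen for 10 of the 36 members (16 after rescaling) and for 8 of the 14 of other cell types (7 after rescaling). Larger differences between the diets were found on fewer estimated reads, for example 1.92 for F13a1 and 1.24 for Plau. With 1 library per group none of these differences between the diets was tested.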

How the results depend on the processing

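The alternatives were a pseudocount of 1 or 0.01, a filter that kept genes reaching 1 FPKM, and scaling to equal sums (TPM), to the upper quartile or by median ratios. No member past 1.5-fold changed direction under any of them. With a pseudocount of 1 the members past 2-fold were 0 of 2 in CD+7KC compared to CD, 2 of 4 in WD+7KC compared to WD, 0 of 1 in WD compared to CD and 3 of 9 in WD+7KC compared to CD+7KC, and those past 1.5-fold were 2 instead of 7, 6 instead of 11 and 2 instead of 5 in the first 3 comparisons. The filter left 0 past 2-fold and 3 past 1.5-fold in CD+7KC compared to CD, and likewise 0 and 3 in WD compared to CD. A pseudocount of 0.01 gave 2 past 2-fold in WD compared to CD. Rescaling to equal sums gave 7 past 2-fold in WD+7KC compared to WD and 3 past 1.5-fold in WD compared to CD. It also turned the median of the 36 members from -0.15 to 0.06 in WD+7KC compared to WD and from -0.06 to 0.14 in WD+7KC compared to CD+7KC, and changed the sign of 4, 8, 3 and 6 members, none past 1.5-fold, in the 4 comparisons in the order above. A pseudocount of 1 removes calls of genes near 1 FPKM by its construction. Depth limits F13a1, A2m, F2rl1, Procr, Plat and Plaur, which rest on the fewest estimated reads.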
